A study of Ursus arctos with 12 samples.

Results

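The genes described here are those of the serine/arginine-rich splicing factors (SR proteins), their relatives TRA2A and TRA2B, and the heterogeneous nuclear ribonucleoproteins (hnRNPs), measured in the thigh muscle of the same brown bears in summer and in winter. They were chosen by symbol, as every gene whose name starts with SRSF, TRA2 or HNRNP and that had 30 or more reads summed over the 12 libraries. This gave 33 genes of the 17290 that passed the same minimum, 11 SRSF genes, 2 TRA2 genes and 20 hnRNP genes, and 0 genes with these names fell below it. Muscle of 6 free-ranging brown bears (Ursus arctos, 2 to 3 years old) was biopsied at the vastus lateralis during winter hibernation and again in the active period in summer of the same year. The captures were made in February and June under anaesthesia, and season was the only factor that set the groups apart in the labels. Each biopsy was a piece of whole muscle, so fewer cells of a type and less RNA per cell cannot be told apart.

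SR proteins bind exonic enhancer sequences through RNA recognition motifs and recruit the spliceosome through a tail of alternating arginines and serines, whose phosphorylation by the SRPK and CLK kinases sets where they are and what they bind. The hnRNPs coat nascent transcripts, and many of them oppose SR proteins by silencing exons, while others act in transport, stability and translation of mRNA. Many genes of both families limit their own mRNA by splicing in an exon or a 3′ intron that sends the transcript to nonsense-mediated decay. The deposited counts were summed per gene, so productive and decay-prone transcripts of a member cannot be told apart here, nor can exon choice in their targets.

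Libraries held 16742406 to 32140160 counted reads. The seasons were compared in edgeR (quasi-likelihood F test, Benjamini-Hochberg adjustment over all 17290 genes), with season as the only term and the bears not paired. The adjusted p-values come from this fit unless another test is named, and a gene was called where its adjusted p was under 0.05. By this rule 39.5% of all genes tested differed, 19.6% being higher in winter and 19.9% lower, and among the 9439 genes with a mean of 5 CPM or more the shares higher and lower were 22.0% and 22.9%. Levels are given as CPM, the reads of a gene scaled to a common library size by TMM, and are not corrected for transcript length, so they are compared between seasons and not between genes. Changes are given as log2 of winter over summer. In the fit with a replicate block for the bear 19.6% of all genes were higher and 21.2% lower, and with scaling to library totals 15.7% and 21.9%, and under both the SR and TRA2 genes had 6 higher and 0 lower.

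Of the 13 SR and TRA2 genes, 6 rose in winter (SRSF5, SRSF12, SRSF11, SRSF2, TRA2A and SRSF4), which is 46.2% of them against the 19.6% of all genes, and 0 fell. In edgeR 1 of them, SRSF9, was lower at an unadjusted p below 0.05, and DESeq2 and limma voom called 0 lower. Of the 20 hnRNP genes, 5 rose (HNRNPDL, HNRNPA3, HNRNPA0, HNRNPK and HNRNPU) and 2 fell (HNRNPAB and HNRNPC), which is 25% and 10%, and the remaining 13 were not called. DESeq2 called 8 hnRNP genes higher, where it called 3530 of all 17290 genes, and at an unadjusted p below 0.05 edgeR had 9 higher, against 4138 of all genes. The median log2 fold change was 0.28 over the SR and TRA2 genes, 0.18 over the hnRNP genes and −0.0021 over all genes tested. At the stricter limit of 0.01 for the adjusted p, with a fold change of over 1.3 or under 0.77, 6 SR and TRA2 genes were higher, and 4 hnRNP genes were higher and 1 was lower, where 12% of all genes passed in each direction.

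**Figure D1:**
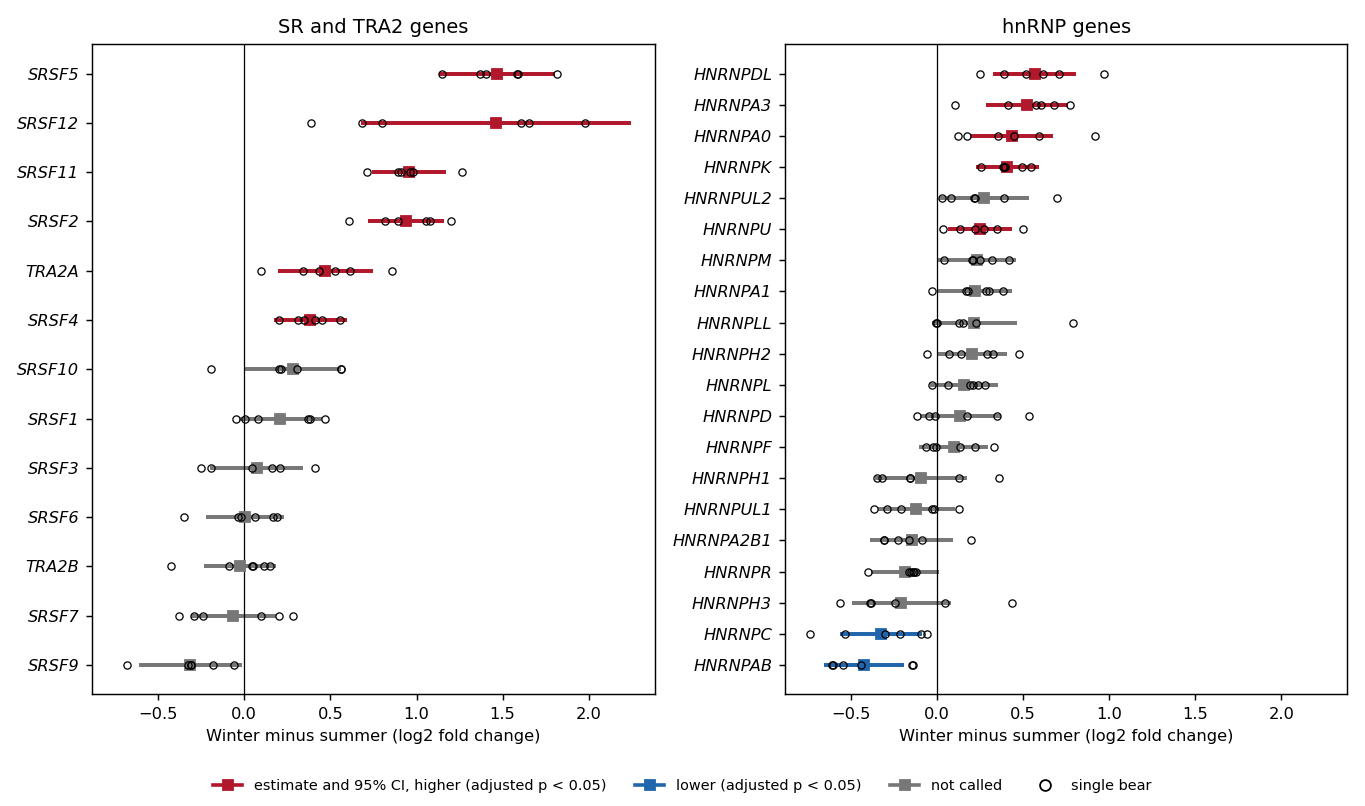
Winter minus summer change of each of the 33 genes on the log2 scale (x axis), SR and TRA2 genes on the left and hnRNP genes on the right; squares are the edgeR estimates with 95% confidence intervals, red for higher, blue for lower and grey for not called, and open circles are the 6 single bears. The estimates of SRSF5, SRSF12, SRSF11 and SRSF2 lie between 0.94 and 1.47, while the hnRNP estimates stay between −0.42 and 0.57. All 6 bears lie above zero for 13 of the 33 genes, hnRNP genes among them.

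For 4 SR genes (SRSF5, SRSF11, SRSF2 and SRSF4) and 4 hnRNP genes (HNRNPDL, HNRNPA3, HNRNPK and HNRNPU) every winter library lay above every summer library, where 9.12% of all genes tested showed this. No member had all winter libraries below all summer libraries (0 of 33), against 8.21% of all genes.

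SRSF5, like SRSF4 and SRSF6, is among the SR proteins with a canonical and a second, divergent RNA recognition motif. Over both seasons it was the SR gene with the most reads, although SRSF1 had more in summer, and it had 2247 to 3864 per library in summer and 4719 to 10454 in winter. SRSF5 lay at 97.6 to 170 CPM in summer (median 115) and at 284 to 439 CPM in winter (median 339). The seasons did not overlap, bear 1316 was the highest in both, and the lowest winter library, of bear 1511, was still above the highest summer library. Its log2 fold change was 1.47 (SE, the standard error, 0.15, adjusted p = 1.65e-05), a 2.77-fold level, with single bears from 1.15 to 1.82.

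SRSF4, a larger protein than SRSF5 and SRSF6, rose less than SRSF5, by 0.38 on the log2 scale (SE 0.09, adjusted p = 0.00528). Its libraries lay at 23.8 to 28.5 CPM in summer and 30.2 to 39.1 CPM in winter, higher in 6 of 6 bears. SRSF6 was at 80.1 to 101 CPM in summer and 78.7 to 106 CPM in winter, with 3 of 6 bears higher. Its log2 fold change was 0.0041 with a 95% interval from −0.21 to 0.22 (adjusted p = 0.98), so the whole interval lay below the interval of SRSF5, 1.14 to 1.79.

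SRSF11, an SR-related protein that contacts splicing factors at both ends of the intron, rose from 62.2 to 77.9 CPM in summer (median 66.9) to 121 to 154 CPM in winter (median 128). All winter libraries were above all summer libraries, the winter libraries of bears 1305 and 1316 being the highest. It rose by 0.96 on the log2 scale (SE 0.10, adjusted p = 1.3e-05), from 0.71 to 1.26 in single bears.

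SRSF2 marks nuclear speckles, where splicing factors are stored, and activates exons through short enhancer motifs. It lay at 51.2 to 69.2 CPM in summer (median 52.8) and at 97.8 to 121 CPM in winter (median 106). In summer bear 1316 stood above the other bears at 69.2 CPM, and this bear had the smallest change, 0.61. The log2 fold change was 0.94 (SE 0.10, adjusted p = 1.58e-05), and the largest change of a single bear, 1.20, was in bear 1512.

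SRSF12, a relative of the splicing repressor SRSF10, was the least abundant member, with 6 to 11 reads per library in summer and 8 to 33 in winter. It lay at 0.24 to 0.48 CPM in summer (median 0.32) and 0.48 to 1.63 CPM in winter (median 0.96). Bears 1305, 1316 and 1317 had the highest winter values, and those of bears 1511 and 1512 were close to the highest summer value, so the seasons overlapped. Its log2 fold change of 1.46 was as large as that of SRSF5 but had a SE of 0.36 (adjusted p = 0.00577), and it was higher in 6 of 6 bears. SRSF10, which represses splicing when it is dephosphorylated, as on heat shock, was at 36.8 to 51.0 CPM in summer and 44.0 to 64.4 CPM in winter. SRSF10 was not called, at 0.28 (SE 0.13, adjusted p = 0.0869) with 5 of 6 bears higher, and without bear 1511, the bear in which it was lower, the adjusted p was 0.0416 (0.0416 to 0.247 over the alternatives).

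TRA2A and TRA2B are the homologues of the fly transformer-2 protein and bind the same purine-rich exonic enhancers. TRA2A lay at 41.3 to 67.4 CPM in summer (median 56.1) and 60.5 to 85.3 CPM in winter (median 77.7). It rose in each bear, least in bear 1511 (0.10) and most in bear 1509 (0.85), and 5 of 6 winter libraries were above the highest summer library. The log2 fold change was 0.47 (SE 0.12, adjusted p = 0.008). TRA2B was at 59.9 to 77.7 CPM in summer and 57.9 to 77.0 CPM in winter, with 4 of 6 bears higher, and its log2 fold change was −0.02 with a 95% interval from −0.22 to 0.17 (adjusted p = 0.853).

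**Figure D2:**
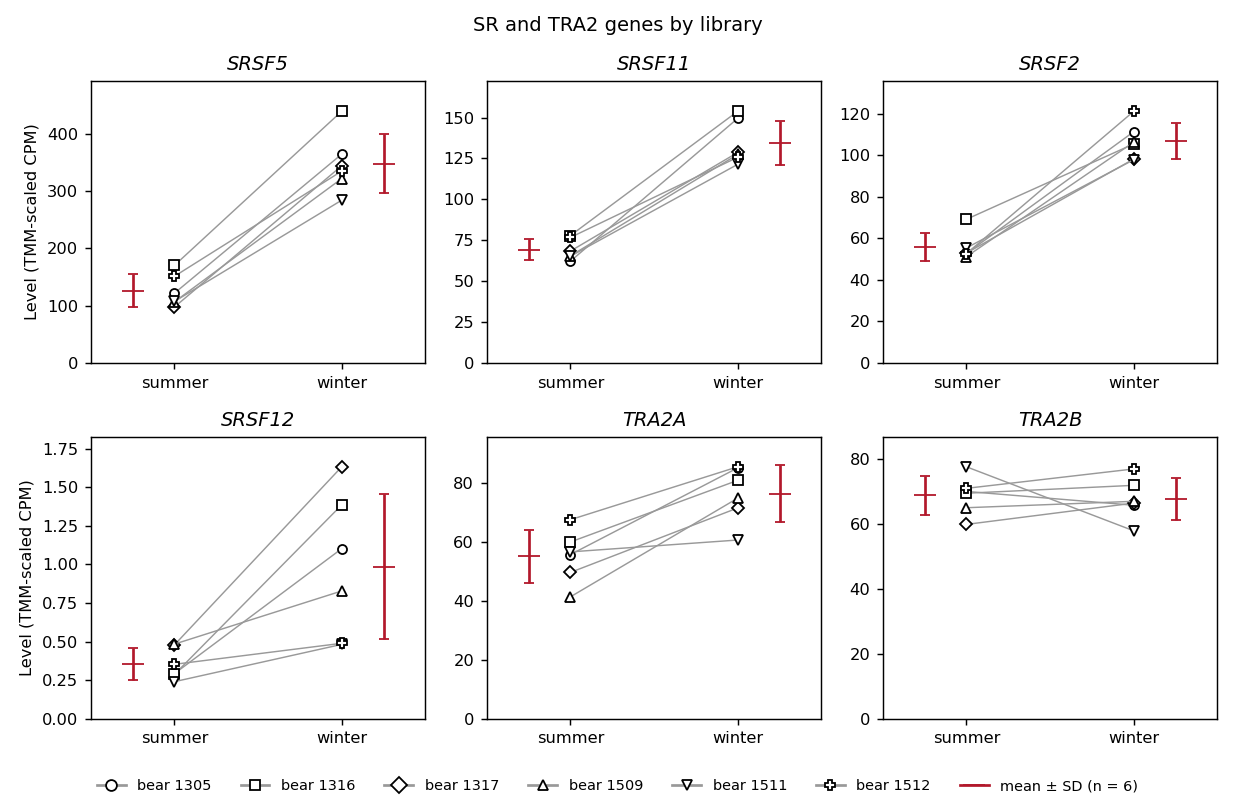
Level of 5 SR and TRA2 genes that rose in winter and of TRA2B, in TMM-scaled CPM (y axis, from 0), by season; each symbol is a bear, lines join its summer and winter library, and red bars are the mean ± SD of 6 libraries. SRSF5 runs from at most 170 CPM in summer to at least 284 CPM in winter, while the TRA2B lines cross within 57.9 to 77.7 CPM.

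The other SR genes were not called. SRSF1, the prototype of the family, which also acts in mRNA export and translation, was higher in 5 of 6 bears at 0.21 (95% interval −0.02 to 0.44, adjusted p = 0.134), and its winter library of bear 1512, at 200 CPM, was the highest. SRSF9, the gene most like SRSF1, had a negative change in 6 of 6 bears, from 6.77 to 9.70 CPM in summer against 5.97 to 8.39 CPM in winter. Its log2 fold change was −0.31 (SE 0.13, adjusted p = 0.0775, 0.0537 to 0.235 over the alternatives). SRSF3 and SRSF7, the small SR proteins that couple splicing to mRNA export, were at 0.07 (95% interval −0.19 to 0.33) and −0.06 (95% interval −0.30 to 0.17), with adjusted p of 0.668 and 0.669. These intervals leave room for changes of either sign smaller than those of SRSF5, SRSF11 and SRSF2.

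Summed over the 13 SR and TRA2 genes, the level was 717 to 926 CPM in summer and 1085 to 1316 CPM in winter, higher in 6 of 6 bears by 1.31 to 1.63 times. SRSF5, SRSF11 and SRSF2 together, picked after their values were seen and given as a description only, went from 219 to 317 CPM to 503 to 698 CPM. The other 10 genes together were at 494 to 609 CPM and 582 to 735 CPM, higher in 4 of 6 bears. The share of SRSF5 among the reads of the family went from 12.9 to 18.4% in summer to 25.4 to 33.8% in winter. Shares are parts of one sum, so a gene that rises less than the sum must lose share. TRA2A and SRSF4 rose, yet TRA2A was higher in share in 1 bear of 6 and SRSF4 in 0 of 6.

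**Figure D3:**
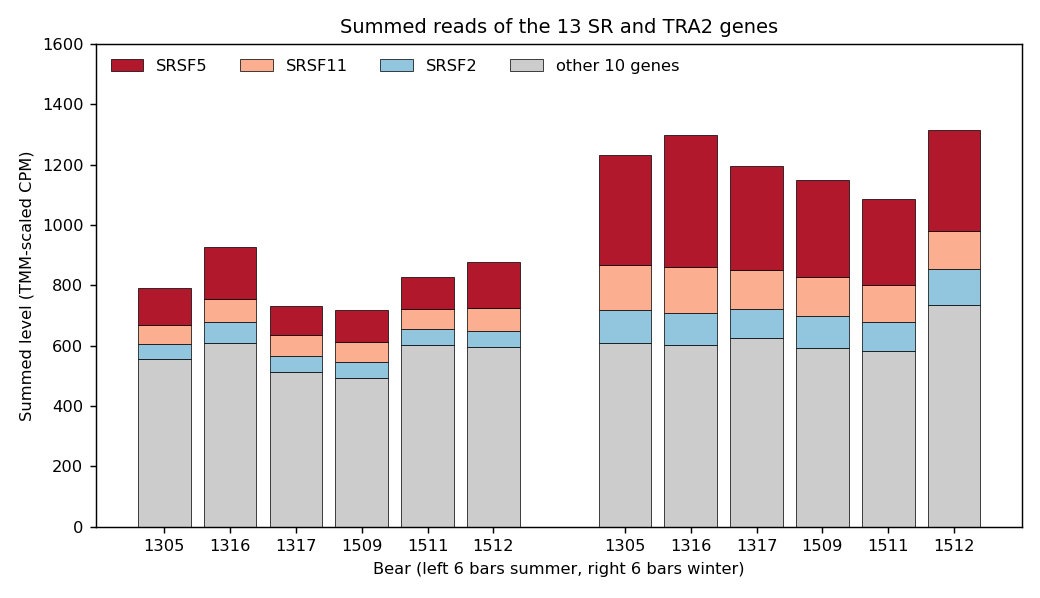
Summed TMM-scaled CPM of the 13 SR and TRA2 genes in each library (y axis, from 0), with the summer libraries on the left and the winter libraries on the right and bears named under the bars; colours mark SRSF5, SRSF11, SRSF2 and the other 10 genes. The winter bars, 1085 to 1316 CPM, are all taller than the summer bars, and the red SRSF5 segment differs most.

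Among the hnRNPs, the largest rise was that of HNRNPDL, a relative of HNRNPD that binds AU-rich RNA and in which inherited variants cause a limb-girdle muscular dystrophy. It lay at 125 to 180 CPM in summer (median 165) and 207 to 261 CPM in winter (median 232), with no overlap, and bear 1317 was the lowest in summer while bear 1511 was the highest in winter. The log2 fold change was 0.57 (SE 0.11, adjusted p = 0.00106), from 0.25 in bear 1509 to 0.97 in bear 1317. HNRNPD, also called AUF and known for its control of mRNA decay at AU-rich elements, was at 88.6 to 138 CPM in summer and 125 to 143 CPM in winter. It was higher in 3 of 6 bears at 0.13 (95% interval −0.09 to 0.36, adjusted p = 0.323).

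Members of the A/B group bind exonic and intronic silencers and package nascent RNA. HNRNPA3 and HNRNPA0 were called higher, while HNRNPA1 and HNRNPA2B1 were not called. HNRNPA3, which acts in splicing and cytoplasmic transport of mRNA, rose from 197 to 273 CPM in summer (median 236) to 294 to 385 CPM in winter (median 339). The seasons did not overlap, although the winter library of bear 1511, at 294 CPM, was only 0.11 above its summer library on the log2 scale. The log2 fold change was 0.52 (SE 0.11, adjusted p = 0.00157). HNRNPA0, which binds AU-rich elements of stress and cytokine mRNAs, was at 38.6 to 57.3 CPM in summer (median 48.2) and 54.1 to 73.3 CPM in winter (median 63.9). The winter library of bear 1509 was within the summer range and the other 5 were above it, and the log2 fold change was 0.43 (SE 0.11, adjusted p = 0.00554).

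HNRNPAB, compared with HNRNPD among the pairs below, was the member with the largest fall. It lay at 36.0 to 52.2 CPM in summer (median 48.5) and 31.1 to 37.4 CPM in winter (median 34.1), and the summer library of bear 1317, at 36.0 CPM, was within the winter range. The log2 fold change was −0.42 (SE 0.10, adjusted p = 0.00525), and the level fell by 0.14 to 0.61 in single bears, in 6 of 6. HNRNPA2B1, the hnRNP gene with the most reads, 16707 to 34715 per library in winter, was at 999 to 1263 CPM in summer and 941 to 1185 CPM in winter, and 3 of 6 winter libraries were below the lowest summer library. Bear 1509 was the only bear with a higher winter value, and the gene was not called (log2 fold change −0.15, 95% interval −0.37 to 0.08, adjusted p = 0.287). HNRNPA1, the best known exon silencer of the group, was higher in 5 of 6 bears at 0.22 (SE 0.10, adjusted p = 0.0784). Its adjusted p was 0.0316 in DESeq2 and 0.0458 when bear 1512 was left out, the alternatives spanning 0.0316 to 0.318. HNRNPA1 has many processed pseudogenes in mammals and the handling of reads that map to several places is not given in the sources used here. Its counts are therefore uncertain, and this limit was not checked for the other members, called ones included.

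HNRNPK, a protein with KH domains that binds cytosine-rich RNA and DNA, had no overlap between seasons. It lay at 306 to 354 CPM in summer (median 317) and 412 to 460 CPM in winter (median 423), and its summer library of bear 1512 was the highest of the season. Its change was 0.41 on the log2 scale (SE 0.08, adjusted p = 0.0013), with single bears from 0.25 to 0.55.

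HNRNPC, which binds runs of uridines and measures transcript length for export, fell by 0.32 on the log2 scale (SE 0.11, adjusted p = 0.0263). It was at 71.2 to 99.9 CPM in summer (median 87.2) and 60.0 to 79.8 CPM in winter (median 66.1), lower in 6 of 6 bears, and bear 1511 went from the highest summer to the lowest winter library. This call was lost without bear 1317 (adjusted p = 0.0566), bear 1511 (0.11) or bear 1512 (0.0971), within 0.015 to 0.11 over the alternatives.

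HNRNPU, a nuclear matrix protein that binds chromatin-associated RNA, rose by 0.25 (SE 0.08, adjusted p = 0.0239). Its libraries lay at 161 to 186 CPM in summer and 191 to 227 CPM in winter, higher in 6 of 6 bears, the smallest change, 0.04, being in bear 1511. This call was not kept in the replicate block fit (adjusted p = 0.0722), with library totals (0.185), without the filter on low counts (0.0619) or without bears 1305, 1316, 1509 or 1512 (0.103, 0.0544, 0.0726 and 0.0508), within 0.00104 to 0.185 over the alternatives. Of its relatives, HNRNPUL2 was at 0.27 (adjusted p = 0.0761) and higher in 6 of 6 bears, and HNRNPUL1 was at −0.12 (adjusted p = 0.351) and higher in 1 of 6.

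**Figure D4:**
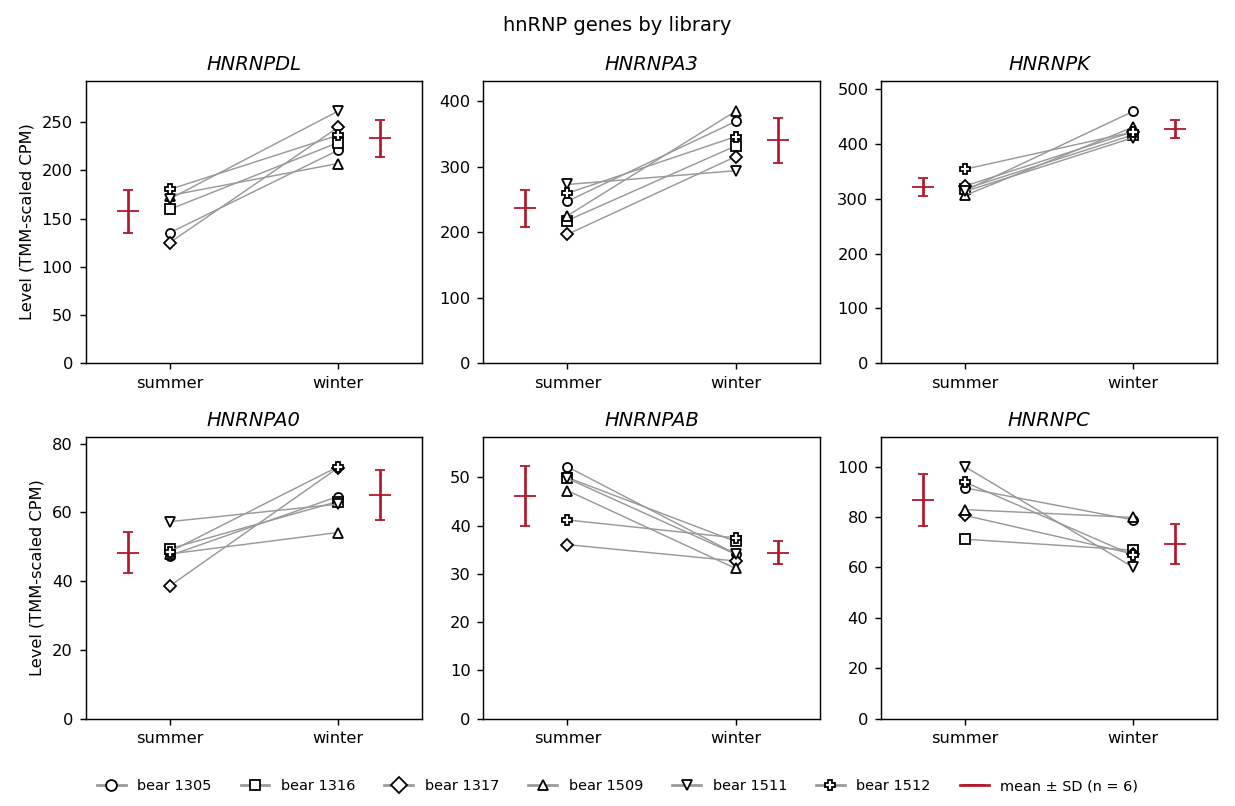
Level of 6 called hnRNP genes in TMM-scaled CPM (y axis, from 0) by season; each symbol is a bear, lines join its summer and winter library, and red bars are the mean ± SD of 6 libraries. HNRNPDL, HNRNPA3 and HNRNPK have no winter library within the summer range, whereas HNRNPAB and HNRNPC fall in each of the 6 bears with overlapping ranges.

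The remaining hnRNP genes were not called. Those of the F/H group, which bind runs of guanosines, were spread around zero, with HNRNPF at 0.10 (adjusted p = 0.399), HNRNPH1 at −0.09 (0.557), HNRNPH2 at 0.20 (0.0774) and HNRNPH3 at −0.21 (0.218). HNRNPH3 ranged widely between bears in summer, from 99.6 CPM in bear 1317 to 182 CPM in bear 1512, against 124 to 146 CPM in winter. Without bear 1317 its log2 fold change was −0.31 and its adjusted p was 0.0324, the lowest of 0.0324 to 0.511 over the alternatives, while that of HNRNPH2 was 0.0413 in DESeq2 and 0.0483 when bear 1512 was left out (0.0413 to 0.357). HNRNPL and HNRNPLL, which bind CA-rich RNA, were at 0.16 (adjusted p = 0.165) and 0.22 (adjusted p = 0.132). HNRNPM, which binds GU-rich RNA, was higher in 6 of 6 bears at 0.23 (adjusted p = 0.0755) and its adjusted p was 0.0461 in DESeq2 and 0.0427 in DESeq2 with the replicate block, but 0.0674 in the edgeR fit with the block, within 0.0427 to 0.203 over the alternatives. HNRNPR, a relative of SYNCRIP, was lower in 6 of 6 bears at −0.18 (adjusted p = 0.105). The 95% intervals of the 13 uncalled hnRNP genes reached from −0.48 for HNRNPH3 to 0.52 for HNRNPUL2.

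The size of the rises varied between bears. With 1 biopsy per bear and season, a trait of a bear cannot be told apart from one of its libraries. Among the 11 members called higher, the smallest change was in bear 1511 for 5 and in bear 1512 for 4, and the median change ran from 0.39 in those bears to 0.89 in bear 1317. Of all 33 members, 13 were higher in 6 of 6 bears, where 18.4% of all genes tested were. Of the members lower in 6 of 6 bears, against 19.0% of all genes, 1 was an SR gene (SRSF9) and 3 were hnRNP genes (HNRNPAB, HNRNPC and HNRNPR).

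Some genes were called while their close relatives were not, which by itself does not show that they differ. The changes of paralogs were therefore compared within each bear. The difference between the log2 changes of 15 pairs was tested by an exact two-sided sign-flip permutation test over 6 bears, whose smallest possible p is 0.03125. The largest difference was that of SRSF5 over SRSF6, 1.48 ± 0.33 (SD, n = 6 bears), followed among pairs with the same sign in all bears by HNRNPA3 over HNRNPA2B1, 0.67 ± 0.18, HNRNPD over HNRNPAB, 0.56 ± 0.33, SRSF1 over SRSF9, 0.52 ± 0.20, and TRA2A over TRA2B, 0.50 ± 0.22. For 9 pairs the sign was the same in 6 of 6 bears and the exact p was this smallest value, which became 0.0521 after Benjamini-Hochberg adjustment over the 15 pairs, so no pair passed 0.05 (0 of 15) and the number of bears limits this test. HNRNPDL changed more than HNRNPD in 5 of 6 bears, the exception being bear 1509 (exact p = 0.0625, adjusted p = 0.0938), and HNRNPL and HNRNPLL differed by −0.05 ± 0.29 (exact p = 0.781), a difference that was 0.05 when bear 1509 was left out. Pairs that share a gene, such as those with SRSF6 or HNRNPA2B1, are not independent of each other.

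**Figure D5:**
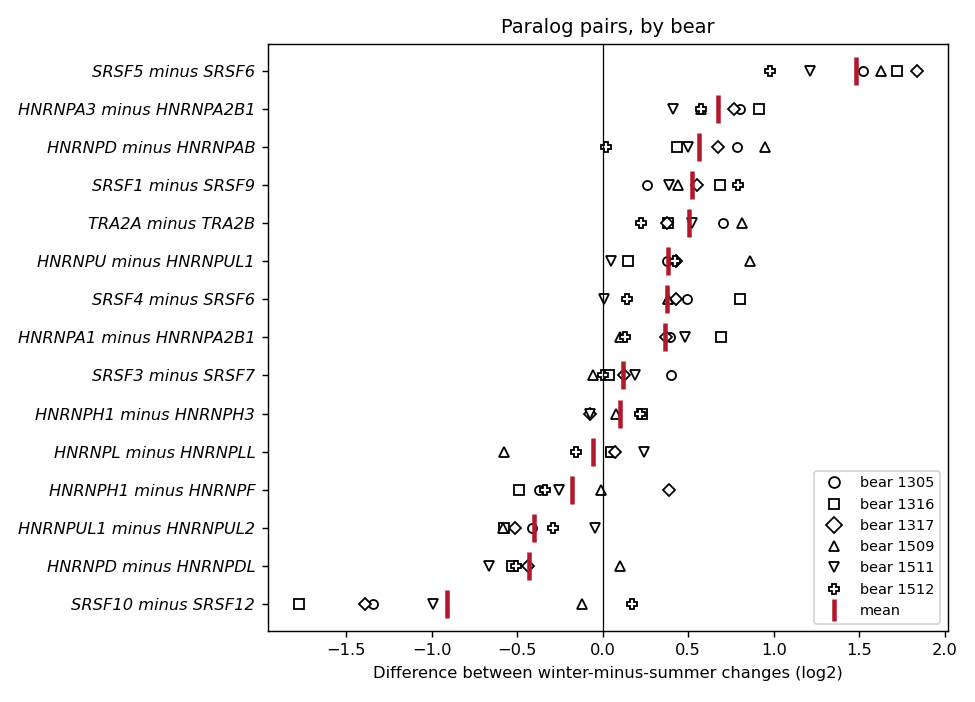
Difference between the winter minus summer changes of the genes in each of 15 paralog pairs, on the log2 scale (x axis); symbols are single bears and red marks their mean. All bears lie on one side of zero for 9 pairs, with SRSF5 minus SRSF6 at 0.98 to 1.84.

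Other splicing genes were counted from lists taken by function, each at an adjusted p below 0.05. These lists were chosen with earlier results of these data known, so their shares are given as a description only. Of all genes tested, 19.6% were higher and 19.9% lower. A list of 12 genes, called hnRNPs under other symbols, also held related RNA-binding proteins. Of these 12, 5 rose and 2 fell (41.7% and 16.7%), with a median log2 fold change of 0.18. SYNCRIP, a relative of HNRNPR, rose by 0.50 (adjusted p = 0.000969), while TAF15 fell by 0.77 (adjusted p = 0.000635) in 6 of 6 bears. The count lower was 1 without any single one of bears 1305, 1316, 1317, 1509 or 1512 and 3 without bear 1511. Of the 7 kinases that phosphorylate SR proteins, 2 rose (28.6%) and 0 fell in edgeR. The counts were also 2 and 0 by the unadjusted p, in DESeq2 and in voom. With the replicate block, which pairs the libraries of a bear, edgeR and DESeq2 each called SRPK3 higher as well, giving 3. Those called without the block were CLK4, at 1.39 (SE 0.14, adjusted p = 1.32e-05), and CLK1, at 1.08 (SE 0.22, adjusted p = 0.00154), and in neither did the seasons overlap. SRPK1, SRPK2, CLK2 and CLK3 had log2 fold changes from −0.03 to 0.19 and SRPK3 one of 0.48 (adjusted p = 0.15, 0.0248 to 0.346 over the alternatives).

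Some SR-related proteins without the SRSF symbol bridge enhancer-bound SR proteins and the spliceosome. Of 13 SR-related genes listed, not all with this role, 8 were higher and 0 lower in edgeR. The share higher was 61.5%, against 19.6% of all genes, and the median was 0.38. At an unadjusted p below 0.05, 9 were higher and 1 was lower, as in DESeq2. The largest rises were those of BCLAF1 at 0.81 (adjusted p = 0.000306), SRRM1 at 0.66 (adjusted p = 3.3e-05) and PPIG at 0.58 (adjusted p = 0.00518). Of 24 genes for the U1 and U2 particles and 3′ splice site recognition, 5 rose and 1 fell, with a median of 0.13 and shares near those of all genes for the rises (20.8%). SNRPA1 at 0.69 (adjusted p = 0.00724) and SF3B1 at 0.58 (adjusted p = 0.000681) were the largest rises, and SNRPD3 fell by 0.44 (adjusted p = 0.00772).

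Among 12 regulators of alternative splicing known from muscle, 7 rose (58.3%, against 19.6% of all genes) and 0 fell in edgeR, with a median of 0.38. The counts were also 7 and 0 by the unadjusted p, in DESeq2 and in voom. MBNL3, at a median of only 0.29 CPM in summer and 0.64 CPM in winter, had a log2 fold change of 1.3 (adjusted p = 0.0086, 0.0512 at most over the alternatives). PTBP2 rose by 0.89 (adjusted p = 9.77e-05) and RBFOX2, which promotes muscle-specific exons, by 0.58 (adjusted p = 0.00189). Without bear 1305, 4 of these 12 were called higher.

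Nonsense-mediated decay is the pathway that degrades the unproductive transcripts of both families. Of 15 decay and exon junction factors, 5 were higher (33.3%, against 19.6% of all genes) and 3 lower (20.0%, against 19.9%). SMG1, the kinase that starts decay by phosphorylating UPF1, rose from a median of 97.3 to 238 CPM, by 1.39 on the log2 scale (adjusted p = 2.97e-05), and UPF3B rose by 0.75 (adjusted p = 0.000619). SMG5 fell by 0.54 (adjusted p = 0.00686) and was lower in 5 of 6. The other factors called lower, named after their values were seen, were UPF1, which fell by 0.40 (adjusted p = 0.0162, 0.0567 at most over the alternatives), and UPF3A, which fell by 0.49 (adjusted p = 0.0098), both lower in 6 of 6 bears with no overlap between seasons. Of the 3 import receptors, TNPO1, which carries HNRNPA1 into the nucleus, rose by 0.77 (adjusted p = 0.00136) in 5 of 6 bears, and TNPO3, which carries SR proteins, fell by 0.24 (adjusted p = 0.0339) in 6 of 6. The call of TNPO3 was lost in the replicate block fits of edgeR and DESeq2, without the filter on low counts, and without bears 1305, 1317, 1509, 1511 or 1512, with adjusted p of 0.012 to 0.0978 over the alternatives.

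The tissue was checked against marker genes. Muscle fibre genes (ACTA1, CKM, DES, MB, TTN, NEB, TNNT1 and TNNT3) summed to 112752 to 188326 CPM in summer and 121144 to 160119 CPM in winter, with 2 of 8 higher and 2 lower. MYH2 and MYH7 were not analysed here. Markers of other cells moved with season as well, and among all genes 19.6% were higher and 19.9% lower. Of 8 fibroblast genes 0 were higher and 5 were lower in edgeR, and their sum went from 4234 to 11366 CPM to 280 to 1695 CPM. Of 6 endothelial genes 1 was higher and 4 were lower (588 to 921 CPM against 396 to 460 CPM), and of 5 smooth muscle and pericyte genes 2 were lower (440 to 570 against 236 to 329 CPM). Of 5 leukocyte genes 2 were lower (52.9 to 104 against 39.7 to 68.6 CPM), and of 3 satellite cell genes 2 were lower (12.8 to 23.8 against 5.85 to 27.3 CPM). Of 4 adipocyte genes 1 was higher, LEP, which had libraries at 0 reads (16.4 to 486 against 8.27 to 183 CPM for the list), and of 3 Schwann cell genes, among them SOX10 with libraries at 0, 0 were called (2.46 to 24.1 against 1.34 to 110 CPM). Erythroid genes stayed at or below 4.69 CPM, with SLC4A1 and EPB42 at 0 reads in some libraries, and 1 of 2 tested, EPB42, was lower. SR proteins and hnRNPs are made in all of these cells, and the part of cell composition in their changes was not tested.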

How the data were processed

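The authors prepared stranded poly-A libraries from the muscle biopsies of 6 bears, aligned single reads with TopHat2 2.1.1 to the brown bear assembly ASM358476v1, and counted reads per gene on the stranded setting of featureCounts 1.6.2. The deposited values are these raw counts, with no normalization or filter by the authors. Season was taken from the labels and the bear from the sample titles.

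Genes with fewer than 30 reads in all were not tested. The counts were analysed in R 4.3.3 with edgeR 4.0.16 (TMM, glmQLFit and glmQLFTest, season as the only term), with DESeq2 1.42.0 and limma 3.58.1 voom as alternatives, and the fits were tested on simulated data. Log2 CPM used a prior count of 2. Intervals of 95% come from the edgeR fit. The study's methods name DESeq2 but no design formula. The alternatives were a replicate block for the bear in edgeR and in DESeq2, DESeq2 alone, voom, RLE, library totals, no filter, filterByExpr, each bear left out, and a stricter limit.

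The libraries of a bear come from the same animal, by the study's methods. Within a bear, departures from the mean of each season had correlations of 0.0903 to 0.344, with a median of −0.0634 between bears. The lowest chi-square per gene between libraries of a season was 35.5, so none is a copy. Biopsies are 1 per bear and season.

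The members, gene lists and naming rule were chosen with earlier results of these data known. Values by library were given for the 5 SR or TRA2 and 6 hnRNP genes with the largest called change of the same sign in all bears, for called genes against the majority and for the gene with the most reads; of each other list at most 3 called genes were named, and 1 gene that this rule would name is not reported here. Of 16 listed pairs, 15 had both genes in the table.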

Additional observations from a re-analysis of the deposited data

Results flagged for a closer look

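Within each season the highest and the lowest of the 6 libraries of each member were examined on the log2 CPM scale, and a library was singled out where its gap to the nearest other library, as a share of the whole range, exceeded the 95% critical value of Dixon's test. This gave 3 of 66 groups, where chance gives about 1 in 20. For SRSF2 the summer library of bear 1316 was at 6.11, above the other summer libraries at 5.68 to 5.79. For HNRNPD the winter library of bear 1509 was at 7.17, above the others at 6.96 to 7.02. For HNRNPK the summer library of bear 1512 was at 8.47, above the others at 8.26 to 8.34, with a gap of 0.626 of the range. The calls of SRSF2 and HNRNPK and the absence of one for HNRNPD were the same without these bears.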

How the results depend on the processing

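Of the 13 called members, 11 kept their direction and their call in all 14 alternatives, the exceptions being HNRNPC and HNRNPU. Of the 20 that were not called, 11 kept their sign and stayed uncalled in all. The replicate block in edgeR changed the call of HNRNPU and of no other member. Outside the members it gave 3 kinases, 4 hnRNPs under other symbols and 6 decay and exon junction factors higher in place of 2, 5 and 5. It also gave 0 import receptors lower, as in DESeq2 with the block (0). DESeq2 called 8 hnRNP genes higher in place of 5, 2 import receptors higher and 1 SR-related protein lower, as library totals did (1). RLE gave 1 hnRNP under another symbol lower and 2 import receptors higher, no filter 1 and 0 lower of these lists, and filterByExpr 2 import receptors higher. The stricter limit left 1 hnRNP gene lower, 1 hnRNP under another symbol lower, 3 snRNP genes and 4 muscle regulators higher and 0 import receptors lower. With a bear left out, 1 to 2 hnRNP genes were lower (1 without bear 1511 or 1512), 1 to 3 hnRNPs under other symbols were lower, 0 to 1 SR-related proteins were lower, 4 to 7 muscle regulators were higher, and 1 to 2 import receptors were higher and 0 to 1 lower. Signs turned only near zero. SRSF3 was at −0.0083 and SRSF6 at −0.078 with library totals, SRSF6 at −0.0094 without the filter, and with a bear left out SRSF6 ran from −0.031 to 0.079, SRSF7 from −0.12 to 0.0016 and TRA2B from −0.055 to 0.055. Library totals moved the median of all genes to −0.08. The cause of these shifts was not tested. For the pairs, library totals and a prior count of 0.5 gave no adjusted p below 0.0521, and with 5 bears the test cannot pass. SRSF12 had the fewest reads, 6 to 33 per library.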
